A study of Mus musculus with 12 samples.

Results

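The effect of RSPO2 was measured here across both BMP2 states of an RNA sequencing experiment in MC3T3-E1 cells, by setting the 6 libraries that received RSPO2 against the 6 that did not. All 12 of 12 libraries of the series entered this comparison, with the BMP2 state and the replicate number as covariates, and the question was which genes moved the same way whether or not BMP2 was present. MC3T3-E1 is a mouse pre-osteoblast line, here wild type (WT) and subclone 14, so that all values come from 1 clone. The cells were kept in osteogenic medium, which holds ascorbic acid phosphate and β-glycerophosphate, and were harvested on day 5. Controls received vehicle (Control), and the other arms received recombinant mouse RSPO2 protein at 200 ng/ml (RSPO2), recombinant BMP2 protein at 100 ng/ml (BMP2), or the combination at these same doses (BMP2+RSPO2), with 3 replicates per arm that the series describes as independent biological replicates. The labels give every library the same batch entry. The replicate numbers were taken from the sample titles, and a matching of same-numbered libraries across arms is an assumption. The study set out to define what each protein and their combination do to transcription during osteoblast differentiation.

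R-spondins are secreted proteins that bind LGR receptors and keep the ubiquitin ligases RNF43 and ZNRF3 from removing Frizzled receptors, so that a cell responds more strongly to the Wnt ligands around it. In the nucleus β-catenin then works with TCF and LEF factors, and many of the genes it switches on encode inhibitors that limit the pathway again, such as Axin2, Notum and Nkd2. In bone, Wnt signalling favours osteoblasts over chondrocytes, and BMP2 acts through SMAD proteins to drive both osteoblast and cartilage genes.

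Values are FPKM, fragments scaled to gene length and to all mapped fragments, and the depth of the libraries is unknown because no counts were used. Between 10681 and 11379 genes reached 1 FPKM in a library. One library stands apart: in BMP2+RSPO2 replicate 1, transcripts of RNA polymerase III (such as Rn7sk and Rmrp) made up 19.1% of all FPKM. The next highest share was 2.30%, in RSPO2 replicate 3, and 10 libraries had shares of 0.18% to 0.656%. Its 10 highest genes took 57.8% of its FPKM, and its median cytosolic ribosomal protein gene stood at 285 FPKM, against 509.8 FPKM in replicate 2 and 562 FPKM in replicate 3 of that arm. Several results below are also given without it, and the others include it. Cell cycle genes had their highest median FPKM of an arm in replicate 1 of every arm (47.9, 47.2, 41.4 and 26.5 FPKM, against 7.55 to 19.3 FPKM in replicates 2 and 3), and the replicate number was a covariate of the models used for the values below. The osteoblast identity of the cells was seen in all 4 arms: Runx2 averaged 29.9, 23.2, 39.0 and 43.6 FPKM, and Col1a1 5581, 5141, 7915 and 11887 FPKM, in the order Control, RSPO2, BMP2 and BMP2+RSPO2. None of 7 endothelial markers reached 1 FPKM in 3 libraries, and none of 5 epithelial markers did (a list of 6, of which 5 had values). The highest single values were 3.89 FPKM for Cdh5 and 2.26 FPKM for Krt14. The summed levels of the 2 lists lay at or under 6.12 and 2.64 FPKM in every library with RSPO2. Without RSPO2 they lay at or under 1.74 and 1.36 FPKM. The defining markers Ptprc, Epcam, Adipoq and Myod1 stood between 0 and 0.05 FPKM. Among markers of skeletal muscle, Tnnc2 was the only one tested and reached 83.1 FPKM, whereas 9 of 10 were not tested; the list summed to between 0 and 84.1 FPKM with RSPO2 and to at most 45.1 FPKM without it. The adipocyte markers, with Cebpa as the only one of 10 tested, summed to 1 to 3.06 FPKM with RSPO2 and to at most 4.52 FPKM without it. The blood and macrophage markers, of which Cd14 and Cd68 were tested, summed to 1.36 to 6.89 FPKM with RSPO2 and to at most 5.26 FPKM without it, and the part of other cells in the results was not tested.

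The promoters of the marker genes that rose and fell most clearly, Axin2 and Ptgfr, are shown for their sequence context. They are the 250 bases before the RefSeq transcription start on build GRCm38.p6, at chr11:108920099-108920348 on the plus strand and chr3:151837529-151837778 on the minus strand, with capitals marking the TCF/LEF core CTTTG or its reverse complement CAAAG.

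Axin2: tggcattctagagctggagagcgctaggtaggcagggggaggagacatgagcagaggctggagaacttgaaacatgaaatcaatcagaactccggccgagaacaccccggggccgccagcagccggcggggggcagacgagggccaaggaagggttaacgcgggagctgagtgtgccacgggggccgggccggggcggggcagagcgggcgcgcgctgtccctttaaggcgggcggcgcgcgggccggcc

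Ptgfr: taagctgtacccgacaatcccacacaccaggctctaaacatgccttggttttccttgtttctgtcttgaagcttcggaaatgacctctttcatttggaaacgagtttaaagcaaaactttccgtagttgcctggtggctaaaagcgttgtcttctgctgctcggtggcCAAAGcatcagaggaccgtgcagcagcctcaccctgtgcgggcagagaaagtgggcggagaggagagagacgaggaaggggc

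The Axin2 window holds no such core, and the Ptgfr window holds 1, which begins 82 bases before the start (offset -82). Of the 24 genes called below, 19 have promoters in the RefSeq table, 24 promoters in all, and 11 of these 24 hold the core on either strand, against 48.6% of all 32851 promoters of this length. The longer motifs CTTTGAA and CTTTGAT, which contain the core, occurred in 0 of the 24 and in 7.48% of all promoters. These matches describe the windows only.

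Genes were tested with limma on log2(FPKM + 1), where they reached 1 FPKM in at least 3 libraries, and a gene was called when its Benjamini-Hochberg adjusted p over all 11548 tested genes was under 0.05. RSPO2 changed 24 genes on average over the BMP2 states, which is 0.208% of the genes tested: 7 rose (0.0606%) and 17 fell (0.147%). At an unadjusted p under 0.05 there were 1892 genes (16.4%), 404 of them higher and 1488 lower. Log2 changes are differences of log2(FPKM + 1) with RSPO2 minus without, averaged over the states, and they understate the change of genes at low FPKM. Of the 24 called genes, 24 moved in the same direction in both states, against 54.8% of all tested genes, and 24 moved in that direction in 6 of 6 same-numbered pairs, against 10.8% of all tested genes (2.59% higher, 8.24% lower). The model adds the effects of RSPO2 and BMP2 and counts a difference between the states or between same-numbered pairs as residual. By construction it therefore calls most readily the genes whose effect is alike in both states and across the pairs. In 15 of the 24 the arms did not overlap in either state, against 2.01% of all tested genes, and in 10 the 6 libraries with RSPO2 did not overlap the 6 without it, against 0.58%.

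The count of called genes depended on single libraries. It was 8, 13 and 10 without Control replicate 1, 2 and 3, and 38, 9 and 4 without RSPO2 replicate 1, 2 and 3. It was 21, 11 and 0 without BMP2 replicate 1, 2 and 3, and 65, 3 and 2 without BMP2+RSPO2 replicate 1, 2 and 3. In the limma fit with 0 calls, 1146 genes still had an unadjusted p under 0.05. In all 12 of these fits each of the 24 genes kept its sign, on average and in both states. This was largely set in advance, because the 24 genes have 1 sign in 6 of 6 same-numbered pairs of these same libraries. Leaving out the library with the high share of polymerase III transcripts (BMP2+RSPO2 replicate 1) kept all 24 among its 65 calls, of which 29 were higher and 36 lower.

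**Figure D1:**
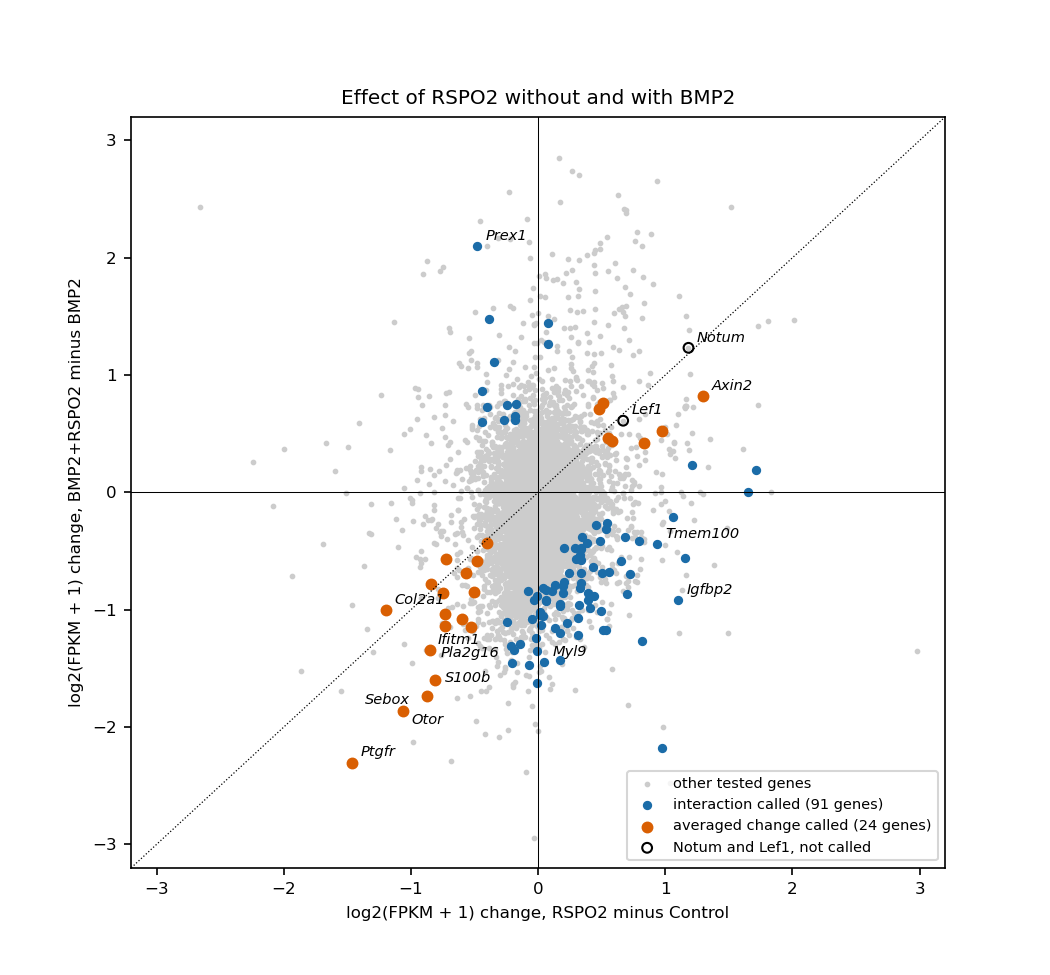
Each point is 1 of 11548 tested genes, with the log2(FPKM + 1) change of RSPO2 minus Control on the x axis and of BMP2+RSPO2 minus BMP2 on the y axis, and 6 genes lie outside the axes. The 24 genes called on average (orange) lie in the quadrants where both changes have the same sign. The 91 genes called for the interaction are in blue, and the dotted line marks equal change.

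Of the 4 marker genes, Axin2 and Ptgfr were called, and Notum and Lef1 were not. Axin2, a scaffold of the complex that degrades β-catenin, was at 5.32, 3.72 and 3.47 FPKM in Control and at 14.4, 9.70 and 11.1 FPKM with RSPO2. It was at 3.73, 1.43 and 1.66 FPKM with BMP2 and at 4.89, 4.37 and 4.34 FPKM with BMP2+RSPO2. Every library with RSPO2 lay above every library without it in the same BMP2 state, and the states overlapped because BMP2 lowered the gene (log2 change -0.95, adjusted p = 0.0015 in limma). Axin2 rose by 1.06 on the log2 scale (SE 0.128, adjusted p = 0.0138 in limma), with 1.30 in the absence and 0.82 in the presence of BMP2. It was called in 4 of the 12 fits that left out 1 library, with adjusted p up to 0.0678 in limma and log2 changes from 1.01 to 1.17.

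Notum, a secreted enzyme that removes the lipid from Wnt ligands, was at 8.83, 9.05 and 7.72 FPKM in Control and at 17.4, 23.1 and 21.8 FPKM with RSPO2. It was at 7.69, 3.68 and 3.78 FPKM with BMP2 and at 7.86, 15.7 and 16.1 FPKM with BMP2+RSPO2. The arms did not overlap in either state, although replicate 1 with BMP2+RSPO2 lay only just above replicate 1 with BMP2 (difference 0.03 on the log2 scale, against 1.83 and 1.84 in the other pairs). Its averaged log2 change was 1.21 (SE 0.208) with adjusted p = 0.0616 in limma, and 1.37 with adjusted p = 0.0194 without BMP2+RSPO2 replicate 1. Quantile normalization and median-of-ratios scaling also called it.

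Lef1, a transcription factor of the β-catenin complex, was at 1.88, 1.90 and 1.78 FPKM in Control and at 3.43, 3.22 and 3.99 FPKM with RSPO2. It was at 0.76, 1.32 and 1.32 FPKM with BMP2 and at 3.34, 1.69 and 1.89 FPKM with BMP2+RSPO2. The arms did not overlap in either state, with replicate 1 of BMP2+RSPO2 the high library of its arm. Its averaged log2 change was 0.64 (SE 0.135) with adjusted p = 0.127 in limma, and it was called in 0 of 12 fits that left out 1 library.

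Ptgfr, the receptor of prostaglandin F2α, had the largest fall among the called genes. It was at 20.6, 20.0 and 24.8 FPKM in Control and at 7.27, 6.59 and 7.94 FPKM with RSPO2. It was at 23.7, 30.0 and 33.3 FPKM with BMP2 and at 7.08, 4.08 and 4.29 FPKM with BMP2+RSPO2. The highest library with RSPO2 lay below the lowest library without it over both states. Ptgfr fell by 1.88 on the log2 scale (SE 0.187, adjusted p = 0.00984 in limma), by 1.46 in the absence and by 2.30 in the presence of BMP2, and it was called in 11 of 12 fits that left out 1 library. Its level did not pass the test for BMP2 (log2 change -0.04, adjusted p = 0.906 in limma). Among the 8 tested genes of prostaglandin synthesis and reception, Ptgfr was the only one called: the cyclooxygenase genes Ptgs1 and Ptgs2 had averaged log2 changes of 0.45 and 0.63 (adjusted p = 0.282 and 0.226 in limma), and the median of the list was -0.08 beside -0.09 over all tested genes.

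**Figure D2:**
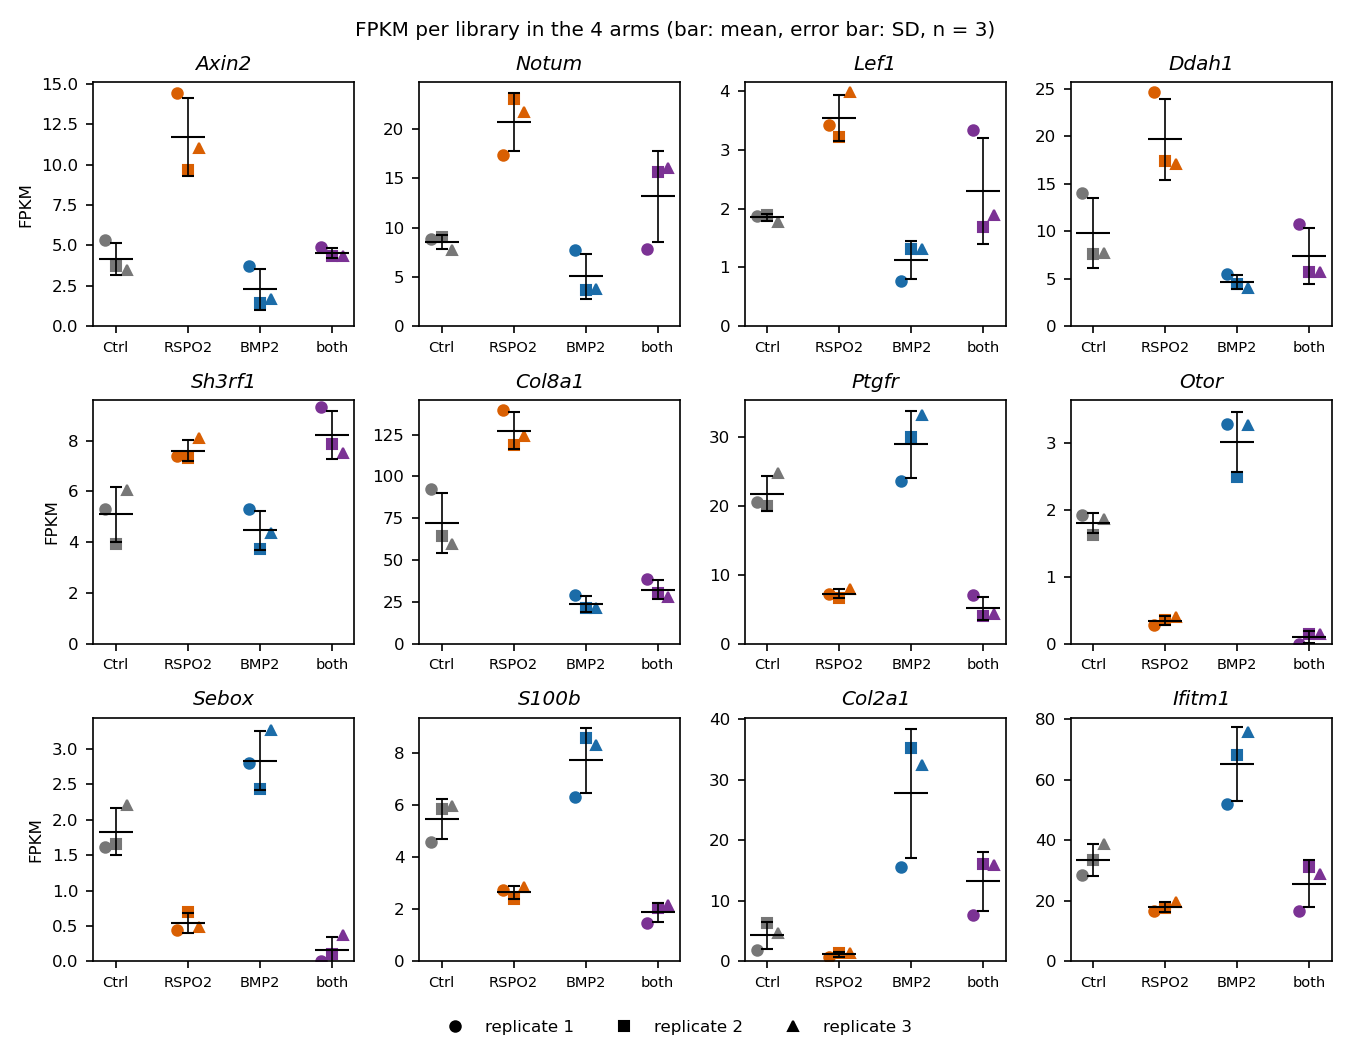
FPKM of 12 genes in each library (y axes, linear and starting at 0) by arm (x axes), with marker shapes for the replicate number, a bar at the mean and the SD as error bar (n = 3 per arm). The first 6 genes, Axin2 to Col8a1, are higher with RSPO2 in both BMP2 states and the others, Ptgfr to Ifitm1, are lower, and Col2a1 and Col8a1 also differ several-fold between the BMP2 states.

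The other rises were moderate and in genes of varied function. Ddah1, an enzyme that breaks down methylated arginines that inhibit nitric oxide synthesis, was at 14.0, 7.62 and 7.71 FPKM in Control and at 24.6, 17.4 and 17.1 FPKM with RSPO2. It was at 5.49, 4.45 and 4.03 FPKM with BMP2 and at 10.7, 5.71 and 5.67 FPKM with BMP2+RSPO2, so that the arms did not overlap in either state. It rose by 0.75 on the log2 scale (SE 0.111, adjusted p = 0.0404 in limma). Sh3rf1, a ubiquitin ligase that scaffolds JNK signalling, was at 3.74 to 6.07 FPKM in the 6 libraries without RSPO2 and at 7.32 to 9.31 FPKM in the 6 with it, with no overlap (log2 change 0.64, SE 0.097, adjusted p = 0.0444 in limma). Ptprj, a receptor tyrosine phosphatase, was at 1.75 to 2.65 FPKM without and at 3.11 to 3.85 FPKM with RSPO2, again with no overlap (log2 change 0.59, SE 0.090, adjusted p = 0.0442 in limma). The predicted long noncoding RNA Gm28933 showed the same separation, at 7.12 to 8.84 FPKM without and 9.70 to 13.7 FPKM with RSPO2 (log2 change 0.51, adjusted p = 0.0449 in limma).

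Col8a1, which encodes a short-chain collagen, was at 92.8, 64.5 and 59.4 FPKM in Control and at 139.6, 118.6 and 124.3 FPKM with RSPO2. With BMP2 it was at 29.1, 21.2 and 21.2 FPKM, and with BMP2+RSPO2 at 38.5, 30.4 and 28.0 FPKM. The last library of BMP2+RSPO2 lay below the first of BMP2, so the arms overlapped with BMP2, while each of the 6 same-numbered pairs was higher with RSPO2. It rose by 0.63 (SE 0.098, adjusted p = 0.0444 in limma) and fell by 1.75 with BMP2 (adjusted p = 1.24e-05 in limma). Inpp4a, a phosphatase of phosphoinositides, rose by 0.51 with RSPO2 (adjusted p = 0.0444 in limma), with means of 2.29, 3.81, 5.27 and 7.75 FPKM in the order Control, RSPO2, BMP2 and BMP2+RSPO2. It was the 1 gene of the 24 that both proteins changed in the same direction. BMP2 itself, averaged over the RSPO2 states, changed 10 of the 24, against 23.1% of all tested genes, and in 9 of these 10 its sign was opposite to that of RSPO2.

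The largest falls after Ptgfr were in genes at low FPKM. Otor, which encodes the secreted protein otoraplin, was at 1.92, 1.63 and 1.87 FPKM in Control and at 0.28, 0.36 and 0.40 FPKM with RSPO2. It was at 3.29, 2.50 and 3.27 FPKM with BMP2 and at 0, 0.15 and 0.15 FPKM with BMP2+RSPO2. Sebox, a homeobox gene, was at 1.61 to 3.27 FPKM in the 6 libraries without RSPO2 and at 0 to 0.70 FPKM in the 6 with it. Neither gene overlapped between libraries with and without RSPO2 (log2 changes -1.46 and -1.30, adjusted p = 0.00984 and 0.021 in limma), and both passed the filter only through the libraries without RSPO2. S100b, a calcium-binding protein also made by chondrocytes, was at 4.57, 5.84 and 5.96 FPKM in Control and at 2.73, 2.39 and 2.87 FPKM with RSPO2. It was at 6.30, 8.59 and 8.31 FPKM with BMP2 and at 1.46, 2.04 and 2.15 FPKM with BMP2+RSPO2, with no overlap over both states, and fell by 1.20 (SE 0.149, adjusted p = 0.0152 in limma).

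Genes of cartilage and of the bone matrix were among the falls. Col2a1, the main collagen of cartilage, was at 1.86, 6.40 and 4.63 FPKM in Control and at 0.69, 1.43 and 1.43 FPKM with RSPO2. It was at 15.6, 35.3 and 32.4 FPKM with BMP2 and at 7.59, 16.1 and 15.9 FPKM with BMP2+RSPO2. Replicate 1 was the low library of every arm, which made the arms overlap with BMP2, and each of the 6 same-numbered pairs was lower with RSPO2. Col2a1 fell by 1.10 on the log2 scale with RSPO2 (SE 0.106, adjusted p = 0.00984 in limma), by 1.19 in the absence and by 1.01 in the presence of BMP2, and rose by 2.56 with BMP2 (adjusted p = 3.2e-06 in limma). It was called in 11 of 12 fits that left out 1 library. In bulk RNA, fewer cells that make a transcript and less of it per cell cannot be told apart.

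Among the 8 tested chondrocyte genes Col2a1 was the only one called, and 7 of 8 lay below 0, with a median of -0.31 beside -0.09 over all tested genes. Sox9, the transcription factor that starts cartilage formation, averaged 5.49, 2.72, 7.38 and 5.09 FPKM in the order Control, RSPO2, BMP2 and BMP2+RSPO2 (log2 change -0.62, adjusted p = 0.129 in limma, and adjusted p = 0.0316 without BMP2+RSPO2 replicate 1). Hapln1, a link protein of cartilage proteoglycans, had a log2 change of -0.79 (adjusted p = 0.144 in limma). Col10a1, the collagen of hypertrophic cartilage, lay above 0 on average, with 0.50 (adjusted p = 0.433 in limma). A value below 0 on average was not always a fall in both states. Col11a2 had log2 changes of -0.97 without and 0.89 with BMP2 (-0.04 on average), and Matn3 had 0.01 and -0.80. The list's median was -0.53 without and -0.28 with BMP2.

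Postn, which encodes the matrix protein periostin, was at 175.5, 180.9 and 182.9 FPKM in Control and at 132.6, 120.9 and 119.1 FPKM with RSPO2. It was at 165.8, 178.2 and 186.5 FPKM with BMP2 and at 88.9, 76.1 and 73.2 FPKM with BMP2+RSPO2. The libraries with RSPO2 lay below those without it over both states, and Postn fell by 0.84 (SE 0.126, adjusted p = 0.0404 in limma). It was the only one called of 21 interstitial matrix genes, whose median was -0.08, 0.00 without BMP2 and -0.63 with BMP2. Tenascin C (Tnc) came next in this list with a log2 change of -0.92 (adjusted p = 0.0534 in limma, and 0.0316 without BMP2+RSPO2 replicate 1). Clec11a, which encodes the osteogenic factor osteolectin, averaged 87.4 and 58.0 FPKM in Control and with RSPO2, and 110.8 and 52.0 FPKM with BMP2 and with BMP2+RSPO2. Its arms overlapped without BMP2 and not with BMP2, and it fell by 0.84 (SE 0.123, adjusted p = 0.0404 in limma). Vit, which encodes the matrix protein vitrin, was at 11.7 to 15.8 FPKM in the 6 libraries without RSPO2 and at 5.67 to 9.53 FPKM in the 6 with it (log2 change -0.80, adjusted p = 0.0275 in limma).

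The remaining falls were in membrane and signalling genes. Ifitm1, an interferon-induced membrane protein, was at 28.4, 33.6 and 38.8 FPKM in Control and at 16.7, 17.7 and 19.7 FPKM with RSPO2. It was at 51.9, 68.3 and 75.7 FPKM with BMP2 and at 16.8, 31.2 and 29.0 FPKM with BMP2+RSPO2, so that the arms did not overlap in either state, and it fell by 1.10 (SE 0.123, adjusted p = 0.00984 in limma). F3, which encodes tissue factor, the starter of blood coagulation, was at 9.87, 26.9 and 23.4 FPKM in Control, 5.90, 15.1 and 13.6 with RSPO2, 11.8, 25.9 and 27.0 with BMP2, and 5.12, 10.6 and 11.7 with BMP2+RSPO2. As with Col2a1, replicate 1 was low in every arm, so the arms without BMP2 overlapped while every same-numbered pair was lower with RSPO2, and F3 fell by 0.94 (SE 0.096, adjusted p = 0.00984 in limma). Fgd3, an exchange factor for small GTPases, fell by 0.89 (SE 0.096) with the same low replicate 1 in every arm. Fam13c, Mboat1 (an acyltransferase of membrane phospholipids), Slc26a7 (an anion exchanger), Hebp2 and Cmtm4 fell by 0.63, 0.68, 0.65, 0.53 and 0.42, and the libraries with RSPO2 lay below all those without it for Mboat1 (7.16 to 8.47 against 11.1 to 15.4 FPKM).

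Fgf7, a growth factor that stromal cells send to epithelia, was at 8.40, 20.4 and 15.9 FPKM in Control and at 4.10, 12.0 and 7.82 FPKM with RSPO2. It was at 9.51, 15.9 and 17.5 FPKM with BMP2 and at 4.41, 10.2 and 9.75 FPKM with BMP2+RSPO2. Its arms overlapped in both states because replicate 1 was low throughout, yet each of the 6 same-numbered pairs was lower with RSPO2, and it fell by 0.81 (SE 0.096, adjusted p = 0.0131 in limma). It was the only one called of 12 FGF ligands, receptors and feedback genes (median 0.16). The receptor genes Fgfr2 and Fgfr1 had log2 changes of -0.50 and 0.43 (adjusted p = 0.0616 and 0.132 in limma), in opposite directions in 6 of 6 pairs each, and without BMP2+RSPO2 replicate 1 they were -0.53 and 0.48 (adjusted p = 0.0398 and 0.0418 in limma).

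**Figure D3:**
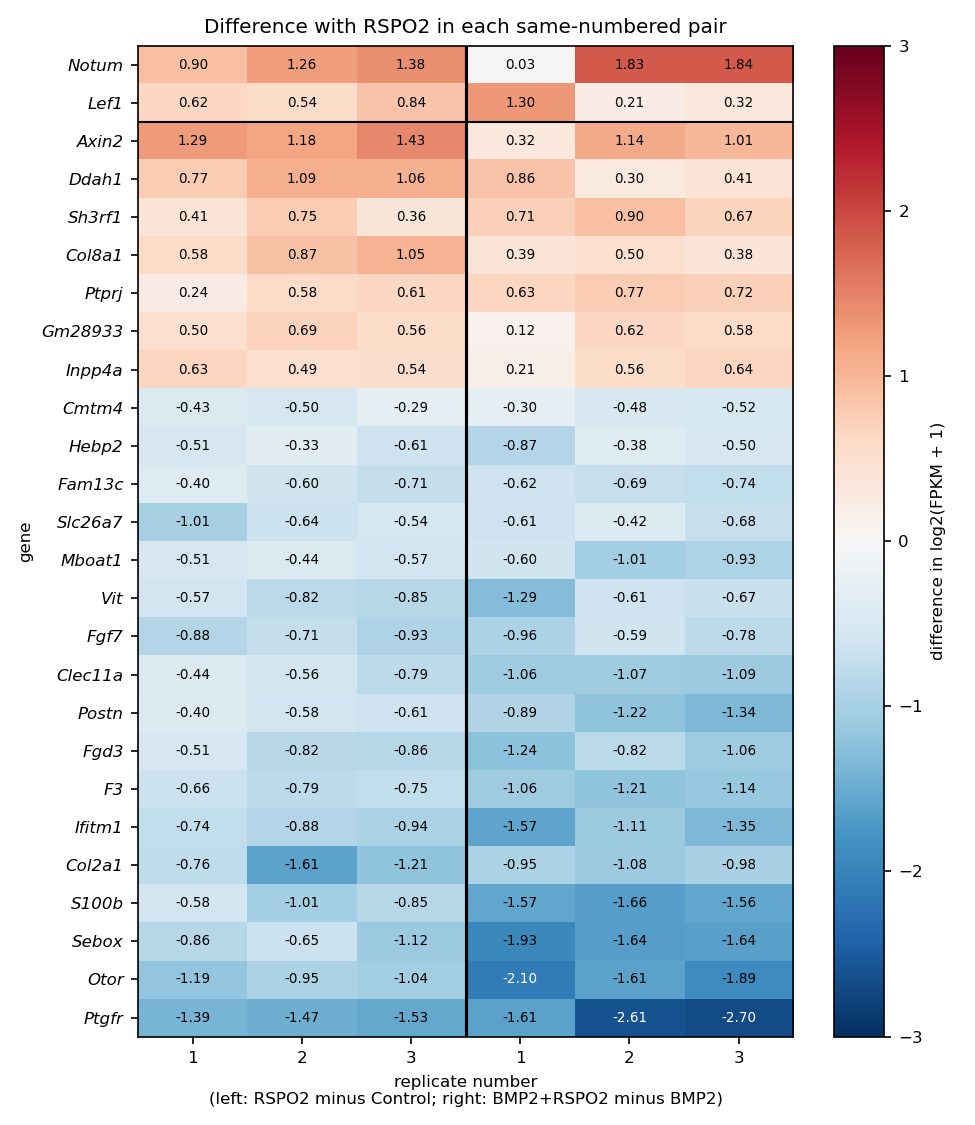
Difference in log2(FPKM + 1) with RSPO2 in each same-numbered pair (columns: 3 pairs of RSPO2 minus Control at the left, 3 of BMP2+RSPO2 minus BMP2 at the right) for Notum, Lef1 and the 24 called genes (rows), red for higher and blue for lower. Every called gene has 1 sign in all 6 pairs, and the smallest entry for Notum, 0.03, is the pair of replicate 1 with BMP2.

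By the functional terms of the deposited table, 9 of the 21 called genes that carry a term belong to the extracellular region, space or matrix, against 7.66% of the 9194 tested genes with a term. Col2a1, Ifitm1 and Clec11a were the 3 called genes among the 51 tested members of the ossification term, against 0.208% called of all tested genes. All 3 fell, as did 17 of all 24 called genes, and neither term was tested as a set.

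The feedback inhibitors of the Wnt pathway lay above 0 as a group, although only Axin2 was called. Of 10 genes on this list 8 were tested, 8 of 8 had positive averaged changes, 7 had an unadjusted p under 0.05 (against 3.50% of all tested genes on the higher side), and 4 were higher in 6 of 6 pairs (against 2.59%). Their median log2 change was 0.67 beside -0.09 over all tested genes, 0.90 without and 0.58 with BMP2, and between 0.63 and 1.00 under the alternatives tried. The list holds the markers Axin2 and Notum and was chosen with earlier results of these data known. These counts and this median are therefore no independent support. Apcdd1, a membrane protein that binds Wnt ligands, was at 4.22, 1.02 and 1.54 FPKM in Control, 10.0, 4.29 and 3.54 with RSPO2, 1.33, 0.57 and 0.76 with BMP2, and 3.21, 1.58 and 1.39 with BMP2+RSPO2. Its arms overlapped without BMP2 and did not with BMP2, and its log2 change of 0.89 (SE 0.143) had adjusted p = 0.0534 in limma, and 0.0335 without BMP2+RSPO2 replicate 1. The secreted Wnt binder Wif1, the metalloprotease Trabd2b and the ligase Rnf43 had log2 changes of 0.45, 0.43 and 0.31 with adjusted p = 0.169, 0.238 and 0.269 in limma. Znrf3, the other ligase that R-spondins act on, was at 0.19 (adjusted p = 0.435 in limma). Nkd1 and Dkk1 stayed under the filter, at no more than 0.39 and 0.18 FPKM.

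Nkd2, which binds Dishevelled, was the only tested member of this list called for a difference between the states. It was at 1.80, 0.98 and 1.01 FPKM in Control and at 5.92, 6.52 and 6.58 FPKM with RSPO2, but at 0.33, 0.03 and 0.10 FPKM with BMP2 and at 0.30, 0.39 and 0.23 FPKM with BMP2+RSPO2. The log2 change was 1.72 without BMP2 and 0.19 with BMP2, the difference between them passed the test (adjusted p = 0.0292 in limma), and the averaged change of 0.95 did not (adjusted p = 0.206 in limma). With BMP2 its values of 0.03 to 0.39 FPKM lay where log2(FPKM + 1) understates changes. Trabd2b (0.71 without and 0.15 with BMP2) and Rnf43 (0.07 and 0.54) also differed in size, with interaction adjusted p = 0.222 and 0.229 in limma.

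Other parts of the pathway had 0 called members in the limma fit. Of all tested genes, 16.4% had an unadjusted p under 0.05 (3.50% higher and 12.9% lower), and 8.24% were lower in 6 of 6 pairs. Of 9 further Wnt target genes, 3 had an unadjusted p under 0.05, all higher (Lef1, Fgf18 and Wisp1), and their median was 0.16. Ccnd1 and Myc, often cited as Wnt targets, had log2 changes of -0.01 and 0.00. Of 14 tested receptors and coreceptors, Fzd5, Fzd8 and Lrp5 were lower in 6 of 6 pairs, with log2 changes of -0.62, -0.34 and -0.37 (adjusted p = 0.0681, 0.174 and 0.261 in limma), and Fzd5 had adjusted p = 0.00929 without BMP2+RSPO2 replicate 1. The list's median was 0.03. The 10 tested Wnt ligands had a median of -0.14, with 2 at an unadjusted p under 0.05 in each direction, and 15 transducers a median of 0.00 with 3 at an unadjusted p under 0.05. Of the 9 secreted antagonists only Dkk2, Dkk3 and Sfrp2 were tested, with a median of 0.05, and Sfrp2 had log2 changes of 0.72 without and -0.70 with BMP2 (interaction adjusted p = 0.0292 in limma). The cells' own Rspo2 transcript was low, at 1.14 to 2.09 FPKM on average without added RSPO2 and at 1.19 and 0.09 FPKM with it (log2 change -0.72, adjusted p = 0.135 in limma, lower in 6 of 6 pairs). Lgr4, the only LGR receptor gene tested, averaged 3.97, 2.69, 5.52 and 6.59 FPKM in the order Control, RSPO2, BMP2 and BMP2+RSPO2, and Lgr5 was listed at 0 in every library.

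**Figure D4:**
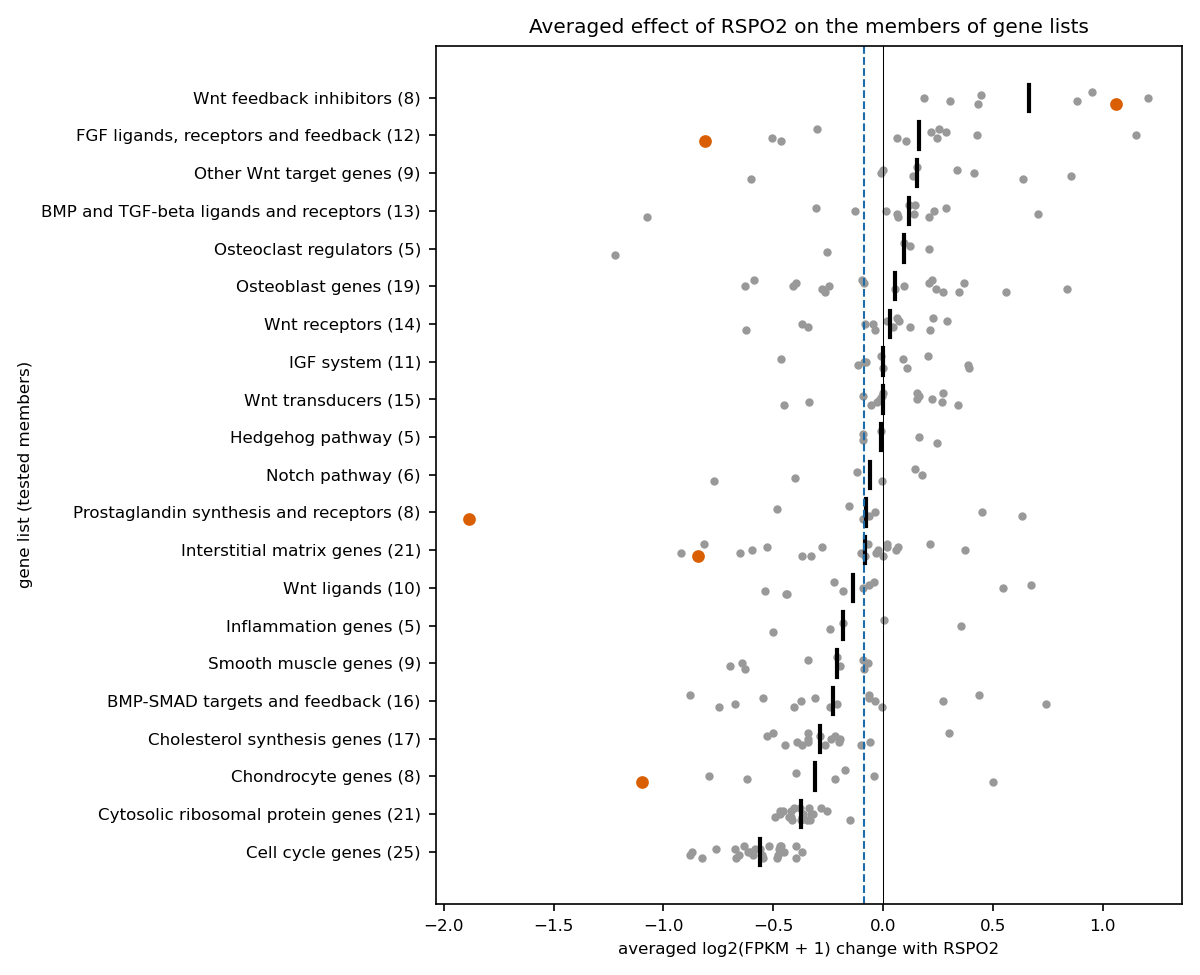
Averaged log2(FPKM + 1) change with RSPO2 (x axis) for each tested member of the gene lists with at least 5 tested members (y axis), with called genes in orange, a black bar at each list's median and a dashed line at the median of all tested genes, -0.09. The Wnt feedback inhibitors have the highest median drawn (0.67) and the cell cycle genes the lowest (-0.56), and the RNA polymerase III transcripts were left out of the drawing.

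Averaging placed the osteoblast genes near 0. None of the 19 tested was called in limma. At an unadjusted p under 0.05 there were 2, both higher, against 3.50% of all tested genes on the higher side. The median of 0.06 joined -0.56 without BMP2 and 0.50 with BMP2. Its sign was not stable, as it ranged from -0.08 to 0.18 under the alternatives tried. Ibsp and Dmp1, which encode mineral-binding proteins of bone, had changes of opposite sign, -1.06 and -0.77 without BMP2 against 0.50 and 1.89 with BMP2. The targets and feedback genes of BMP and SMAD signalling had 0 of 16 called, a median of -0.23 and 13 of 16 below 0, 6 of them at an unadjusted p under 0.05 (against 12.9% of all tested genes on the lower side) and 1 above 0 at that p. Atoh8, Smad6, Id2, Fst and Msx2 were lower in 6 of 6 pairs, against 8.24% of all tested genes. Their log2 changes were -0.75, -0.37, -0.55, -0.88 and -0.41. Grem1, a secreted BMP antagonist, was higher in 6 of 6 pairs, against 2.59% of all tested genes, with 0.74 (adjusted p = 0.107 in limma).

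Growth and metabolism lists were lower without a single call in limma. Of all tested genes, 12.9% were lower at an unadjusted p under 0.05, and 8.24% were lower in 6 of 6 pairs. Of 25 cell cycle genes, 25 lay below 0, 22 had an unadjusted p under 0.05 and 10 were lower in 6 of 6 pairs. Their median was -0.56 (-0.16 without BMP2, -1.01 with BMP2, and -0.51 on average without BMP2+RSPO2 replicate 1). Of 17 cholesterol synthesis genes 12 had an unadjusted p under 0.05, all lower, and 6 were lower in 6 of 6 pairs. Their median was -0.28 (-0.12 without and -0.41 with BMP2). Of the 21 ribosomal protein genes of the cytosol, 16 had an unadjusted p under 0.05 on the lower side and 5 were lower in 6 of 6 pairs. Their median was -0.37 (-0.11 without and -0.67 with BMP2), and -0.24 on average without BMP2+RSPO2 replicate 1. The 6 tested RNA polymerase III transcripts had a median of 1.22, and 0.27 without that library. Under quantile normalization, which moved the median of all genes with BMP2 from -0.19 to -0.01, the cell cycle, cholesterol and ribosomal protein medians on average over the states were still below 0. Lists of BMP and TGF-beta ligands and receptors, the IGF system, osteoclast regulators, Notch, Hedgehog, inflammation and smooth muscle genes had 0 called in limma. Each had 0 to 3 members at an unadjusted p under 0.05, and their averaged medians ran from -0.21 to 0.12. Of all tested genes, 0.208% were called. Some of these medians joined unlike states: 0.53 without and -0.40 with BMP2 for the IGF system, 0.21 and -0.42 for inflammation, and 0.02 and -0.70 for smooth muscle. In the other lists they ran from -0.05 to 0.13 without and from -0.19 to 0.03 with BMP2.

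The effect in each BMP2 state was then tested in a model with all 12 libraries, in which the states share no library. Without BMP2, RSPO2 changed 26 genes (0.225%), of which 18 rose (0.156%) and 8 fell (0.0693%), and with BMP2 it changed 1710 (14.8%), of which 205 rose (1.78%) and 1505 fell (13%). Of the 26 genes, 17 had the same sign with BMP2, 9 of these were also called there, and 4 were called with the opposite sign. Of the 1710 genes, 1095 (64.0%) had the same sign without BMP2. The 9 genes called in both states with the same sign were Axin2, Ddah1, Col8a1, Enpp2, Ptgfr, Otor, S100b, Col2a1 and F3, and all but Enpp2 were also called on average. Enpp2, which encodes autotaxin, had log2 changes of 1.73 and 0.74, and its averaged change of 1.24 had adjusted p = 0.0557 in limma (0.0213 without BMP2+RSPO2 replicate 1, and 0.00645 in the model with the interaction term). Each of the 24 genes called on average was called with BMP2 and 8 were called without BMP2. When BMP2+RSPO2 replicate 1 was left out, 84 genes were called in the absence of BMP2. Of these, 58 had the same sign in its presence, 28 were also called there with that sign, and 12 were called with the opposite sign.

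Sizes differed between the states within the called genes without passing a test. The fall was larger with BMP2 in 14 of 17 genes, and the rise was larger with BMP2 in 2 of 7. The median log2 change of all tested genes also shifted, from 0.006 without BMP2 to -0.19 with BMP2. In the presence of BMP2 this median was -0.111 once BMP2+RSPO2 replicate 1 was left out. It was -0.013 under quantile normalization and -0.017 under median-of-ratios scaling. The part of this shift in the sizes of the called genes was not tested. The interaction, which is the effect with BMP2 minus the effect without it, was called for 0 of the 24 in limma, 10 had an unadjusted p under 0.05 (against 20.1% of all tested genes), and the lowest adjusted p was 0.0655, for S100b. Over all tested genes 91 (0.788%) were called for the interaction. A low count among the 24 was largely set in advance, because the fit that chose them counts a difference between the states as residual. Among genes that changed by at least 0.5 on the log2 scale without BMP2, 293 of 519 (56.5%) had the same sign with BMP2, and among those that did so with BMP2, 1740 of 2713 (64.1%) had the same sign without BMP2. These shares were 42.4% and 40.1% without RSPO2 replicate 3, 44.7% and 45.7% without Control replicate 1, and 67.3% and 75.6% without RSPO2 replicate 1. For rises without BMP2, the share with the same sign was 54.3%, and 28.7% of all tested genes were higher with RSPO2 in the presence of BMP2. For rises with BMP2 it was 59.9%, and 51.7% of all tested genes were higher in its absence. For falls without BMP2 the share was 59.6%, below that of all tested genes, of which 8226 of 11548 were lower in the presence of BMP2. For falls with BMP2 it was 65.2%, and 5582 of all 11548 tested genes were lower in its absence. Across genes, which are not independent replicates, the changes in the 2 states correlated with Pearson's r of 0.17. This value rested on single libraries without BMP2: it was -0.14 without RSPO2 replicate 3, -0.03 without Control replicate 1, 0.10 without RSPO2 replicate 2, 0.28 without Control replicate 2 and 0.40 without RSPO2 replicate 1.

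Adding the interaction term to the model, and averaging the effects in the 2 states, called 312 genes (2.70%; 60 higher, 0.52%, and 252 lower, 2.18%), of which 290 had the same direction in both states (2.51% of tested genes). All 24 genes were among the 312, and Notum was too (adjusted p = 0.0316 in limma), whereas Lef1 was not (adjusted p = 0.0534 in limma). Scaling changed the balance of directions: 25 genes rose and 24 fell under quantile normalization, and 22 rose and 20 fell under median-of-ratios scaling, beside 7 and 17 on the FPKM as deposited.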

How the data were processed

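RNA of 12 libraries, 3 per arm, was sequenced from poly(A)-selected stranded libraries, per the labels' protocols. Per the submitters' processing notes, cutadapt 1.10, FastQC 0.10.1, HISAT2 2.0 and StringTie 1.3.4 were used, with edgeR listed without a version or role, on builds GRCm38 and mm10. The gene identifiers of the table are those of the C57BL/6NJ annotation, so no gene coordinates are printed except for promoters, which RefSeq gives on GRCm38.p6. The authors deposited FPKM values to 2 decimals, 1 for each gene in each library. The p-value and q-value columns that the authors deposited do not state their groups and were not used. The FPKM of genes at 0.2 to 1 showed no steps of whole reads: over 66 library pairs, the fullest bin (0.02 wide) of the log ratio held 2.02% to 3.55% of genes. Depth is therefore unknown, and a gene at 0 gets no fold.

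Of 39032 genes, 17203 were at 0 throughout, and the 11548 that reached 1 FPKM in 3 or more libraries entered the tests (1083 without a symbol). Values were log2(FPKM + 1) with a pseudocount of 1. The model in limma 3.58.1 (R 4.3.3) held RSPO2, BMP2 and the replicate number, with 7 residual and 2.69 prior degrees of freedom, two-sided tests and Benjamini-Hochberg adjustment over all tested genes. All adjusted p-values come from limma. The effects within each BMP2 state and the interaction came from the same model with an interaction term. The replicate number was kept as a block because the 6 same-numbered pairs within a BMP2 state deviated together (correlations of 0.16 to 0.63 across genes), and over all 18 same-numbered pairs the correlations ran from -0.12 to 0.63. The fits were also run on data simulated from the fitted additive model with independent noise, which cannot show how calls depend on single libraries.

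The genes named are the 4 markers, up to 10 rises and 10 falls with the largest averaged change among called genes with a symbol and 1 direction in both states, up to 3 called members of each list, and up to 5 genes of the interaction. The other called genes, and list members and Enpp2 given as examples, were chosen after their values were seen. The comparison and the 29 gene lists (417 entries, 405 in the table) were chosen with earlier results of these data known, and no list was tested. Alternatives were the model without the block or with the interaction, a pseudocount of 0.1, other filters, quantile normalization, median-of-ratios scaling, leaving out each library, and replicates 2 and 3 alone.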

Additional observations from a re-analysis of the deposited data

Results flagged for a closer look

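The effect of RSPO2 differed between the BMP2 states, by limma's test of the interaction, in the 5 genes that follow, which have the smallest p of the 91 called. Prex1, an exchange factor for Rac, had the difference of 2.57 on the log2 scale (SE 0.248, adjusted p = 0.0114 in limma): it was at 0.41, 0.88 and 1.06 FPKM in Control and 0.15, 0.22 and 0.44 FPKM with RSPO2, against 1.91, 1.77 and 1.58 FPKM with BMP2 and 7.55, 13.1 and 12.5 FPKM with BMP2+RSPO2. Igfbp2, which binds insulin-like growth factors, had a difference of -2.02 (SE 0.193, adjusted p = 0.0114 in limma): it was at 62.2 to 64.5 FPKM in Control and 119.8 to 148.8 FPKM with RSPO2, against 9.16 to 14.7 FPKM with BMP2 and 5.56 to 6.21 FPKM with BMP2+RSPO2. It was called higher without BMP2 and lower with BMP2, so its averaged change was 0.09.

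Tmem100, a transmembrane protein, also reversed, with 0.93 without BMP2, -0.44 with BMP2 and a difference of -1.38 (adjusted p = 0.0172 in limma). The difference was -1.49 for Myl9, a regulatory light chain of smooth muscle myosin, and -1.25 for Pla2g16, a phospholipase (adjusted p = 0.0114 each in limma). Myl9 was at 229.5 to 292.6 FPKM in the 6 libraries without BMP2, and fell from 167.0 to 184.5 FPKM with BMP2 to 60.6 to 71.9 FPKM with BMP2+RSPO2. These calls held in 6 of the 12 fits that left out 1 library for Myl9, Pla2g16, Igfbp2 and Prex1, and in 5 for Tmem100, with the sign kept in all 12.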

How the results depend on the processing

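Each of the 24 called genes kept its sign, on average and in both BMP2 states, under every alternative, and no change of a named gene or interaction reversed. For the 24 genes this was largely set in advance by their 1 sign in 6 of 6 same-numbered pairs, whereas the calls themselves were not stable. The count of genes called on average, 24, was 9 without the replicate block, 10 without a filter on low values (0 higher, 10 lower), 49 under quantile normalization, 42 under median-of-ratios scaling and 312 with the interaction term. The calls with 1 direction in both states were equally many, except 290 with the interaction term. Leaving out 1 library gave 0 to 65, with 1 direction in both states in each. Within the states, the count without BMP2, 26, was 9 without the replicate block, 2 with a pseudocount of 0.1, 1 without the filter, 87 with replicates 2 and 3 alone, and 0 to 84 without 1 library. The count with BMP2, 1710, was 506 without the replicate block, 746 without the filter, 1083 under quantile normalization, 1074 under median-of-ratios scaling and 133 to 1882 without 1 library. The count for the interaction, 91, was 34 without the replicate block, 5 without the filter, 826 with replicates 2 and 3 alone and 0 to 579 without 1 library. The share of genes of 1 sign in both states was 42.4% to 67.3% without 1 library when chosen without BMP2. Chosen with BMP2, it was 40.1% to 75.6% without 1 library, 60.5% with a pseudocount of 0.1 and 61.7% with replicates 2 and 3 alone. The cause of these shifts was not tested. With 3 libraries per arm and no counts, the precision of low FPKM cannot be given.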
